A study of Mus musculus with 2 samples.

Results

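p53, its inhibitor *Mdm4* and 8 genes that p53 is known to switch on directly were followed in primary mouse chondrocytes with and without *Myl3*. The genes were *Trp53*, *Mdm2*, *Mdm4*, *Ccng1*, *Zmat3*, *Gadd45a*, *Sesn1*, *Sesn2*, *Bax* and *Bbc3*. They were found by their symbols, and all 10 were present among the 22156 genes of the expression table. The labels give rib cartilage as the source of the cells, while the study's methods name both rib and articular cartilage of newborn mice, of the C57BL/6J strain. Cells were kept as a monolayer, and 1 control library and 1 *Myl3*-KO library were sequenced. *Myl3*-KO cells carry floxed *Myl3* alleles and a Cre recombinase driven by the *Col2a1* promoter, which is active in cartilage cells. Controls are wild type by their labels and floxed littermates by the study's methods, so whether both groups share the floxed alleles cannot be told from these sources. Neither source says how many mice gave each library.

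p53 is a transcription factor that is held at a low level by *Mdm2*, a ubiquitin ligase, and by its relative *Mdm4*, which covers the transactivation domain of p53. DNA damage and other stresses free p53, largely at the protein level, and it then raises genes for cell cycle arrest, DNA repair, redox control and cell death, together with *Mdm2* itself, which closes a negative feedback loop. The study asked how loss of *Myl3*, a myosin light chain, bears on senescence, a lasting growth arrest in which p53 is one of the known effectors. RNA counts carry information on the transcripts of these genes and none on p53 protein.

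Each genotype had 1 library, so no difference between genotypes has a replicate check and no test was made. Differences are given as the log2 ratio of CPM (each count scaled by the total of its library), *Myl3*-KO over control. The 95% interval in brackets is an exact Clopper-Pearson interval and covers counting error only, not the spread between cultures. A ratio was called past the limit at 0.5 or more in size on this scale, among the 12431 genes whose counts summed to 10 or more. The expected counts of the control library summed to 17612434.91, and those of the *Myl3*-KO library to 13477976.98. *Myl3* itself had 0 counts in both libraries, below the floor of 3 counts (0.170 CPM for the control and 0.223 CPM for the shallower *Myl3*-KO library), so its deletion could not be checked. Defining cartilage transcripts were scarce, with *Acan*, *Matn1*, *Matn3* and *Hapln1* at 0 in both libraries and *Col2a1* at 30 and 27 counts. *Sox9*, a chondrocyte transcription factor, had 866 control and 480 *Myl3*-KO counts. The 9 chondrocyte markers in the table summed to 57.8 CPM (control) and 45.2 CPM (*Myl3*-KO). The 8 fibroblast markers summed to 15461 and 17531 CPM, and their members differed in both directions. Intervals were above 0 for 3 of them, with *Pdgfra* past the limit higher at 0.61 [0.25, 0.97], and below 0 for 3, with *Dcn* at -1.64 and *Lum* at -1.36 past the limit lower. Apart from *Sox9*, most defining markers of cartilage were near or at 0 in these cells, which are labelled chondrocytes. The part of these markers in the results below was not tested. In such bulk libraries, fewer cells of a type and less RNA per cell cannot be told apart.

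The DNA that p53 recognises is a pair of decamers, each with a central C and G, which together make 20 bases. Promoter sequences from RefSeq (GRCm38.p6), from 250 bases before to 50 bases after each start, were searched for this p53 consensus with no spacer. The motif reads alike on both strands, and each sequence is given on the strand of its gene. Of the 10 genes, 9 had a promoter in the table, and *Zmat3* had none. The windows below are shown because they hold the closest matches, with the 20 matched bases in capitals. *Cdkn1a*, the cell cycle inhibitor p21 and the best known p53 target, is added for comparison.
Ccng1: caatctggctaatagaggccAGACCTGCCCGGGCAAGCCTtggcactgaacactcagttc
Cdkn1a: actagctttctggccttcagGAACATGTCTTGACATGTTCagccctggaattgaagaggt
Trp53: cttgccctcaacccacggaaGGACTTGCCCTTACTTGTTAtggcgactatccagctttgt
Bbc3: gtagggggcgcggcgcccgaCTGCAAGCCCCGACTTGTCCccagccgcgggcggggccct
Sesn1: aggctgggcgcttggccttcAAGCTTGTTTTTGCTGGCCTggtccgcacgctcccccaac

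The *Ccng1* window (chr11:40755442-40755501, minus strand) held a match with 1 mismatch, from base -195 to base -176 counted from the start at 0. The *Cdkn1a* window (chr17:29090908-29090967, plus strand) also held a match with 1 mismatch, from -51 to -32. Matches this close were rare, being found in 0.0670% of the 32851 promoters. The windows of *Trp53* (chr11:69580264-69580323, plus strand, -75 to -56), *Bbc3* (chr7:16309466-16309525, plus strand, -97 to -78) and *Sesn1* (chr10:41887246-41887305, plus strand, -173 to -154) held matches with 3 mismatches. The windows of *Ccng1*, *Cdkn1a* and *Trp53* lie upstream of those genes, and those of *Bbc3* and *Sesn1* lie before an internal start, in an intron of a longer transcript. In all, 4 of the 9 genes held a match with at most 3 mismatches, against 441 of 27025 genes with a promoter (1.63%). With a spacer of up to 13 bases allowed, 7 of 9 held one, against 17.4% of genes. These matches describe letters in a short window and are not evidence of binding.

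All 10 genes were detected in both libraries, from 88 counts over both libraries for *Bbc3* to 5852 for *Mdm4*. Per gene length, as FPKM (reads scaled by gene length and by library), *Bax* was the highest of them in both libraries and *Bbc3* the lowest. In the control the order by FPKM was *Bax*, *Mdm2*, *Ccng1*, *Sesn1*, *Mdm4*, *Trp53*, *Gadd45a*, *Zmat3*, *Sesn2* and *Bbc3*. In *Myl3*-KO the second to the fifth places were taken by *Mdm4*, *Mdm2*, *Sesn1* and *Ccng1*, and the other places were the same. With 1 library each there is no spread over samples that would separate neighbours in this order.

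**Figure D1:**
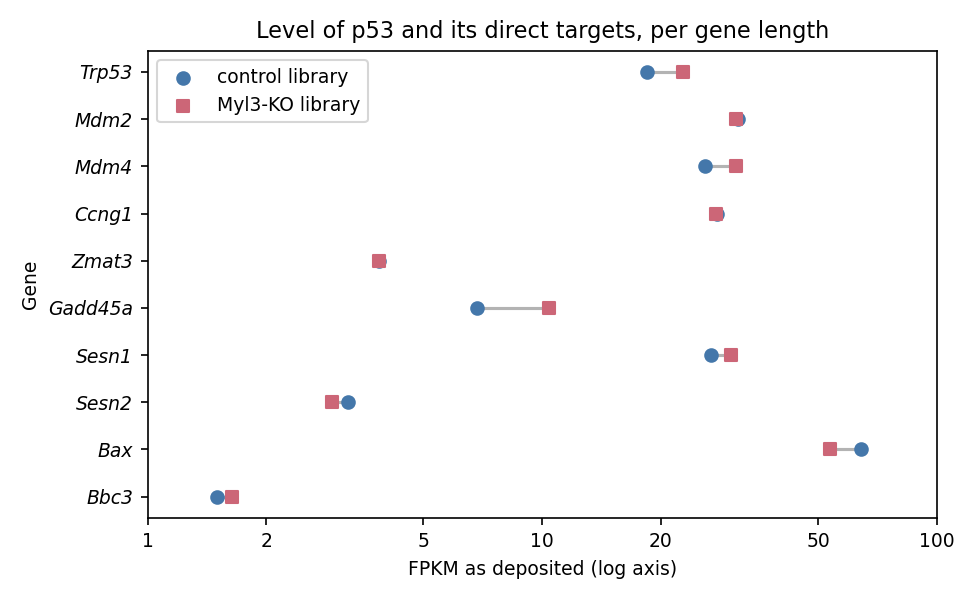
FPKM of p53 and its direct targets on a log axis, with the control library as circles and the *Myl3*-KO library as squares joined by a line for each gene. The widest gap is that of *Gadd45a*, from 6.82 to 10.4 FPKM, while the symbols of *Mdm2*, *Ccng1* and *Zmat3* lie on each other.

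Of the 10 genes, 1 was at least 0.5 higher in the *Myl3*-KO library and 0 were at least 0.5 lower, against 7.99% and 3.75% of all genes with 10 or more counts. The counting interval lay above 0 for 4 genes (*Trp53*, *Mdm4*, *Gadd45a* and *Sesn1*) and below 0 for 1 (*Bax*), against 22.2% and 20.1% of all such genes. Intervals narrow as counts rise, and these shares were not matched for depth. The ratio was above 0 for 5 genes and below 0 for 5, and its median was 0.06 beside 0.02 for all genes. The genes thus did not lie on 1 side as a group.

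**Figure D2:**
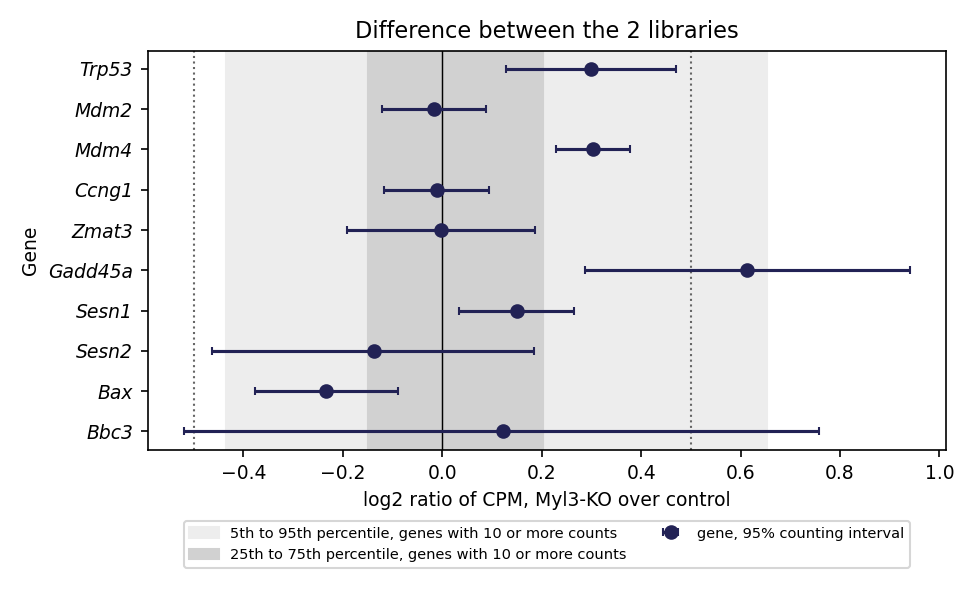
Log2 ratio of CPM (*Myl3*-KO over control) of each gene with its 95% counting interval, over bands from the 5th to the 95th and the 25th to the 75th percentile of all genes with 10 or more counts, and dotted lines at the limit of 0.5 in either direction. *Gadd45a* lies past the limit, *Trp53* and *Mdm4* lie near 0.30 with intervals above 0, and *Bax* lies at -0.23.

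*Trp53* (ENSMUSG00000059552, GRCm38 chromosome 11, 69580359 to 69591873, plus strand) had 579 control counts and 545 counts in the shallower *Myl3*-KO library, or 32.9 and 40.4 CPM. It was 1.23-fold higher in *Myl3*-KO, with a log2 ratio of 0.30 [0.13, 0.47]. That ratio stood at the 83.5th percentile of all genes with 10 or more counts. Among the same genes its FPKM stood at percentile 62.8 (control) and 68.4 (*Myl3*-KO). Of the 31-base words in its transcripts, 10.2% occur in other genes, mostly in the pseudogene *Trp53-ps*, so a part of its reads could not be assigned by sequence alone, and *Trp53-ps* has no row in the table.

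The 2 inhibitors of p53 differed from each other. *Mdm2* (ENSMUSG00000020184, chromosome 10, 117688875 to 117710758, minus strand), which is both the chief inhibitor and a p53 target, had 1714 and 1297 counts. This is 97.3 and 96.2 CPM, with a log2 ratio of -0.02 [-0.12, 0.09]. Counting error alone thus leaves room for a difference of at most 0.12 in size. *Mdm4* (ENSMUSG00000054387, chromosome 1, 132959484 to 133030561, minus strand), the partner of *Mdm2* that lacks strong ligase activity, had 3010 and 2842 counts. It was higher in *Myl3*-KO, at 211 CPM beside 171 CPM, a log2 ratio of 0.30 [0.23, 0.38]. Of its 31-base words, 13.8% occur in other genes, mostly in the pseudogene *Mdm4-ps*.

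Ratios of 2 genes within a library do not depend on how libraries are scaled, and 18 such pairs, chosen after the values were seen, were formed. For each *Mdm2* count there were 1.76 *Mdm4* counts (control) and 2.19 (*Myl3*-KO), a log2 difference of 0.32 [0.19, 0.45]. For each *Mdm2* count there were 0.338 *Trp53* counts (control) and 0.420 (*Myl3*-KO), a difference of 0.31 [0.11, 0.52]. *Trp53* against *Mdm4* differed by -0.0045 [-0.19, 0.18]. The transcript of p53 was thus higher against *Mdm2*, its target and inhibitor, and stood in nearly the same ratio to *Mdm4* in both libraries. *Wrap53*, a neighbour of *Trp53* that is read from the other strand, had 210 and 136 counts, and *Trp53* against *Wrap53* differed by 0.54 [0.18, 0.91].

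*Ccng1*, which encodes cyclin G1, and *Zmat3*, which encodes an RNA-binding zinc finger protein, are p53 targets that answer to it in many cell types. *Ccng1* (ENSMUSG00000020326, chromosome 11, 40748552 to 40755311, minus strand) had 1719 and 1305 counts, or 97.6 and 96.8 CPM. Its log2 ratio was -0.01 [-0.12, 0.09], although its promoter held the closest p53 match of these genes. *Zmat3* (ENSMUSG00000027663, chromosome 3, 32334792 to 32366014, minus strand) had 530 and 405 counts, or 30.1 and 30.0 CPM, and a log2 ratio of -0.0021 [-0.19, 0.19]. Neither of these genes, nor *Mdm2*, differed between the libraries beyond counting error.

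*Gadd45a* (ENSMUSG00000036390, chromosome 6, 67035096 to 67037457, minus strand), which encodes a stress sensor that restrains the entry into mitosis and takes part in DNA repair, had the largest ratio of the 10 genes. It had 147 control and 172 *Myl3*-KO counts, or 8.35 and 12.8 CPM. It was 1.53-fold higher in *Myl3*-KO, a log2 ratio of 0.61 [0.29, 0.94], at the 94.4th percentile of all genes with 10 or more counts. Its relatives did not stand this way. *Gadd45b*, with 1714 and 1199 counts, had a log2 ratio of -0.13 [-0.24, -0.02], and *Gadd45g*, with 1534 and 1231 counts, one of 0.07 [-0.04, 0.18]. Within a library, the count of *Gadd45a* for each *Gadd45b* count was 0.0858 (control) and 0.143 (*Myl3*-KO), a log2 difference of 0.74 [0.40, 1.09]. Against *Gadd45g* the difference was 0.54 [0.20, 0.89]. *Gadd45a* overlaps the noncoding gene *E230016M11Rik* on the other strand over 859 bases, and 17.0% of its 31-base words occur in that gene, which has no row in the table. The strandedness of the counting is not given in the sources used here, so reads of these genes cannot be told apart in the overlap.

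Sestrins damp mTORC1 signalling and oxidative stress. *Sesn1* (ENSMUSG00000038332, chromosome 10, 41809935 to 41908424, plus strand), the sestrin most tied to p53, had 1337 and 1135 counts, or 75.9 and 84.2 CPM. It was 1.11-fold higher in *Myl3*-KO, a log2 ratio of 0.15 [0.03, 0.26], whose lower bound came near 0. *Sesn2* (ENSMUSG00000028893, chromosome 4, 132492032 to 132510501, minus strand), which also answers to the stress factor ATF4, had 197 and 137 counts, or 11.2 and 10.2 CPM. Its log2 ratio of -0.14 [-0.46, 0.18] did not differ from 0 beyond counting error. *Sesn3*, which is known chiefly as a FOXO target, had 1287 and 1166 counts and a log2 ratio of 0.24 [0.13, 0.36]. Within a library, *Sesn1* against *Sesn3* differed by -0.09 [-0.26, 0.07], *Sesn1* against *Sesn2* by 0.29 [-0.06, 0.63], and *Sesn2* against *Sesn3* by -0.38 [-0.73, -0.04]. *Sesn1* and *Sesn3* thus had intervals above 0 on their own. By the pairs, *Sesn3* was told from *Sesn2* with a bound as near 0 as -0.04, while the p53-linked *Sesn1* could be told from neither. The pairs are not corrected for gene length, which is taken up below. *Sesn3*, with 9.12 kb, is longer than *Sesn2*, with 3.47 kb. Whether that bound stays below 0 after such a correction was not tested.

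The cell death targets were not higher as a pair. *Bax* (ENSMUSG00000003873, chromosome 7, 45461697 to 45466898, minus strand), whose product opens the outer mitochondrial membrane, had 1003 and 653 counts, or 56.9 and 48.4 CPM. It was the only one of the 10 genes with an interval below 0, at a log2 ratio of -0.23 [-0.38, -0.09]. *Bbc3* (ENSMUSG00000002083, chromosome 7, 16308393 to 16318205, plus strand), which encodes PUMA, a BH3-only activator of death, had 48 and 40 counts, or 2.73 and 2.97 CPM. Its log2 ratio of 0.12 [-0.52, 0.76] allows a difference past the limit in either direction, so 48 and 40 counts do not show which way it stood. *Bak1* and *Bok*, the effectors related to *Bax*, had log2 ratios of -0.19 [-0.32, -0.06] and -0.20 [-0.42, 0.02]. *Bax* against *Bak1* within a library differed by -0.05 [-0.24, 0.15], so the effectors stood alike within counting error. Against the survival gene *Bcl2l1*, the count of *Bax* was 1.77 times as high in the control library and 1.44 times in *Myl3*-KO, a log2 difference of -0.30 [-0.53, -0.07]. This difference is not corrected for gene length, which is taken up below. Of the 8 other BCL2 family genes with at least 10 counts, 0 were past the limit in either direction, against 7.99% higher and 3.75% lower over all genes. *Bax* shares 11.1% of its words with other genes, mostly with the overlapping *Gm45808* on the same strand, which had 0 counts in both libraries. *Mdm4*, *Sesn1* and *Sesn2* also overlap annotated pseudogene or noncoding loci that have no row in the table.

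The ratio depended on gene length in these libraries. Length implied by count and FPKM was used to split the genes into 10 groups of equal size, and the median log2 ratio was -0.12 in the group of the shortest genes and 0.09 in that of the longest. *Bax*, with 0.895 kb, lies in the shortest group, and its ratio less the median of that group was -0.12 [-0.26, 0.03], an interval that holds 0. *Mdm4*, with 6.69 kb, lies in the longest group, and its ratio less that median was 0.21 [0.14, 0.29]. *Gadd45a* at 0.68 [0.35, 1.0], *Trp53* at 0.31 [0.14, 0.49] and *Sesn1* at 0.14 [0.02, 0.25] kept intervals above 0. The pairs within a library were not centred by length. *Bcl2l1*, with 2.11 kb, is longer than *Bax*, and less the medians of their length groups the ratios were 0.06 for *Bcl2l1* and -0.12 for *Bax*. This correction was chosen after the data were seen. The part of length in the difference of *Bax*, alone or against *Bcl2l1*, was tested no further.

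**Figure D3:**
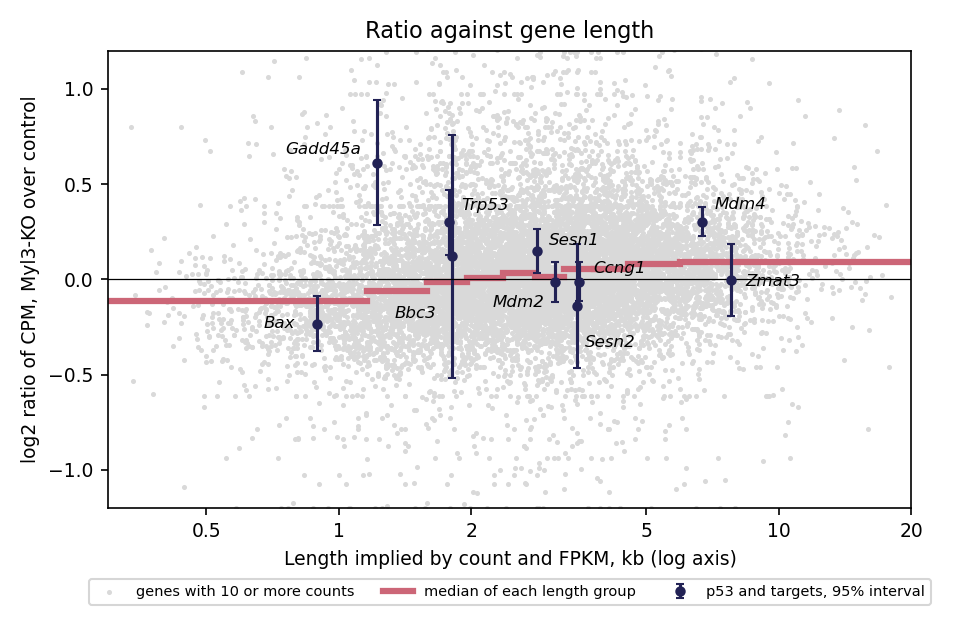
Log2 ratio of CPM (*Myl3*-KO over control) against gene length in kb on a log axis, with genes of at least 10 counts as grey points, the median of each length group as bars and p53 and its targets as points with 95% counting intervals. Genes with larger ratios or lengths fall outside the axes, and the bars climb from -0.12 to 0.09.

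Counts limit the precision gene by gene. Large ratios were more frequent among genes with few counts. With at least 50 counts in all, a filter chosen after the data were seen, 5.01% of 11123 genes were at least 0.5 higher and 1.93% at least 0.5 lower. All 10 genes passed that filter too, and *Gadd45a*, with 319 counts in all, was the one past the limit.

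**Figure D4:**
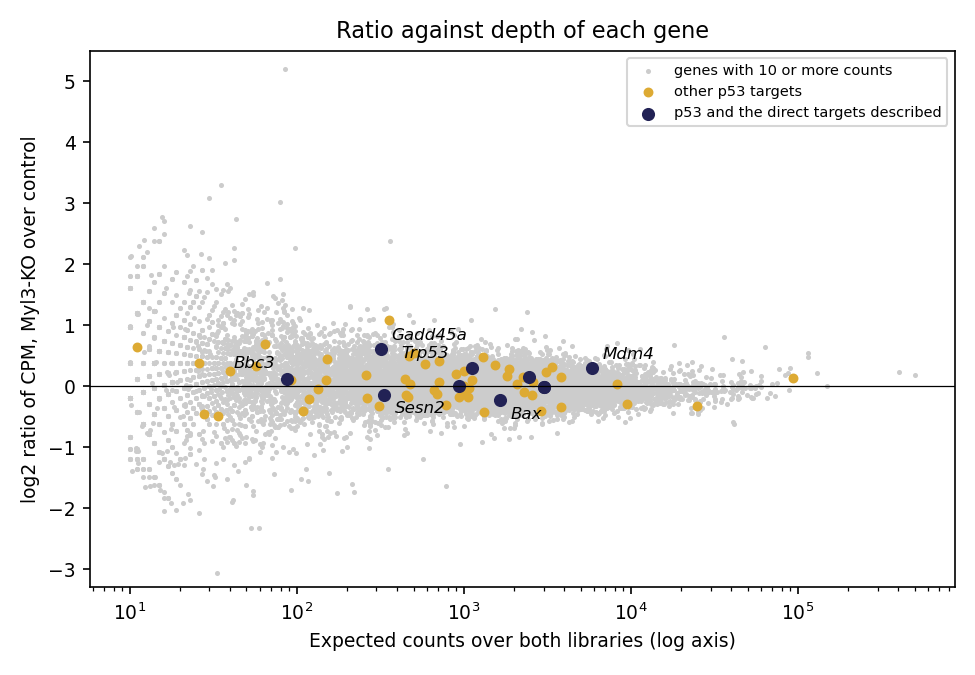
Log2 ratio of CPM (*Myl3*-KO over control) against the expected counts of each gene over both libraries on a log axis, with other p53 targets in yellow and p53 and the direct targets described in dark blue. The spread narrows to the right, and *Gadd45a* stands above the other dark points.

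Other genes that p53 is known to raise were taken from a list of 60, of which 56 had at least 10 counts. Of these, 4 were past the limit higher in *Myl3*-KO and 0 lower, with intervals above 0 for 16 and below 0 for 8. The median was 0.07, and 32 ratios were above 0 and 24 below. Over all genes, 7.99% were past the limit higher and 3.75% lower, with intervals above 0 for 22.2% and below 0 for 20.1%. These shares were not matched for depth. By role, the median was 0.20 for 10 cell cycle arrest genes, -0.01 for 16 cell death genes, 0.02 for 8 DNA repair genes, 0.04 for 13 genes of metabolism and growth, and 0.32 for 9 genes of secreted and surface proteins. Where 10 counts were required of each library, the median of the arrest genes was 0.11, and that of the secreted and surface genes was 0.18 by the FPKM ratio. *Cdkn1a* (p21) had the lowest ratio of the 56, from 22 and 12 counts and 0.65 and 0.47 FPKM. Its log2 ratio of -0.49 [-1.64, 0.59] does not show a direction, and its level lay at the 10.8th percentile of FPKM in the control.

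*Ccnd1*, cyclin D1, had the largest ratio among the other targets, with 136.14 and 221.72 counts and a log2 ratio of 1.09 [0.78, 1.41]. Its product drives the entry into S phase, which is not what the name of its list, cell cycle arrest, says. *Tap1*, a peptide transporter for antigen presentation, was the only other one past the limit whose interval left out 0, with 236.7 and 264.74 counts and a ratio of 0.55 [0.29, 0.81]. *Fas*, a death receptor, had 29 and 36 counts and a ratio of 0.70 [-0.05, 1.46]. *Rprm*, an arrest gene, had 5 and 6 counts and a ratio of 0.65 [-1.33, 2.70], so both were past the limit with intervals that held 0. *Pmaip1* (NOXA) and *Gdf15*, which are often strong p53 targets, had 0 counts in both libraries. These 4 genes lay outside the rule for named genes and are named after their values were seen.

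The paralogues of p53 were thinly expressed. *Trp63* had 29 control and 54 *Myl3*-KO counts, at 0.38 and 1.03 FPKM, and a log2 ratio of 1.28 [0.61, 1.99]. *Trp73* had 0 counts in both. *Trp53* against *Trp63* within a library differed by -0.98 [-1.71, -0.28], so *Trp63* counts were higher against *Trp53* counts in *Myl3*-KO, at 54 beside 545. Paralogues of *Ccng1* and *Zmat3* stood closer to 0, with log2 ratios of -0.08 [-0.20, 0.03] for *Ccng2* and -0.23 [-0.44, -0.02] for *Zmat5*. *Ccni*, *Zmat1* and *Zmat2* had ratios of -0.03, 0.16 and -0.05, and *Zmat4* had 0 counts.

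Kinases, cofactors and other regulators of p53 showed 0 of 28 genes past the limit in either direction, with ratios from -0.33 to 0.27 and a median of -0.02. Over all genes, 7.99% were past the limit higher and 3.75% lower. Intervals of the regulators lay above 0 for 6 and below 0 for 8 of 28, against 22.2% and 20.1% of all genes, not matched for depth. *Cdkn2a*, named after its values were seen, encodes p16 and p19Arf, the latter an inhibitor of *Mdm2*. It had 8647 and 6417 counts, at 554 and 538 FPKM, which placed it at the 99.1st percentile of FPKM in the control. Its log2 ratio was -0.04 [-0.09, 0.0024], and a count per gene does not separate its transcripts.

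Genes of the cell cycle that p53 lowers through p21 and the DREAM repressor complex had lower counts in *Myl3*-KO as a list. Intervals were below 0 for 11 of 12 and above 0 for 0, against 20.1% below and 22.2% above over all genes, and the median was -0.27. These 12 genes had 606 to 8594 counts over both libraries. Intervals narrow as counts rise, and the shares over all genes were not matched for depth. Past the limit lower was 1 gene (2 under TMM and DESeq2 scaling), against 3.75% of all genes. This was *Cdk1*, the mitotic kinase, at 4417 and 2360 counts and a ratio of -0.52 [-0.59, -0.45]. Centred by gene length, the median of the list was -0.20, and *Cdk1* lay within the limit at -0.46. The 1 gene past the limit lower was then *Ccnb1* at -0.51, named after its values were seen. The genes of this list mark cycling cells in general, and the share of cycling cells was not measured. Within the pathway that the deposited table annotates as KEGG p53 signaling, 52 genes other than the 10 had at least 10 counts. There 4 were past the limit higher and 3 lower, against 7.99% and 3.75% of all genes, and the median was -0.10. Intervals were above 0 for 8 and below 0 for 19, against 22.2% and 20.1% of all genes, not matched for depth. The highest ratio of this list, 1.09, was that of *Ccnd1*. This list shares 21 genes with the list of 60 other targets, and *Cdk1* with the cell cycle list, so the lists are not separate readings. The 3 lower genes were *Cdk1*, *Ccne2* (cyclin E2) at -0.58 [-0.68, -0.47] and *Cycs* (cytochrome c) at -0.59 [-0.68, -0.50].

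*Sesn2* is also raised by the integrated stress response through ATF4, and it was read within a list of 10 genes of that response, *Atf4* among them. All 10 ratios were below 0, and the median was -0.32. That of *Ddit3*, named after its values were seen, was only -0.00043 [-0.23, 0.23]. Centred by gene length, *Ddit3* stood at 0.11, and the median of the list was -0.31. Intervals were below 0 for 6 and above 0 for 0, against 20.1% and 22.2% of all genes, not matched for depth. Past the limit were 3 genes lower and 0 higher, against 3.75% and 7.99% of all genes. They were *Trib3*, a pseudokinase, with 103 and 43 counts and a ratio of -0.87 [-1.42, -0.35], and *Chac1*, which degrades glutathione, at -0.64 [-1.04, -0.25]. The third, *Psat1*, of serine synthesis, stood on the limit at -0.50 [-0.57, -0.44]. By the FPKM ratio, 2 genes of the list were past the limit lower. *Sesn2*, at -0.14, was among the 4 of the list whose interval holds 0.

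**Figure D5:**
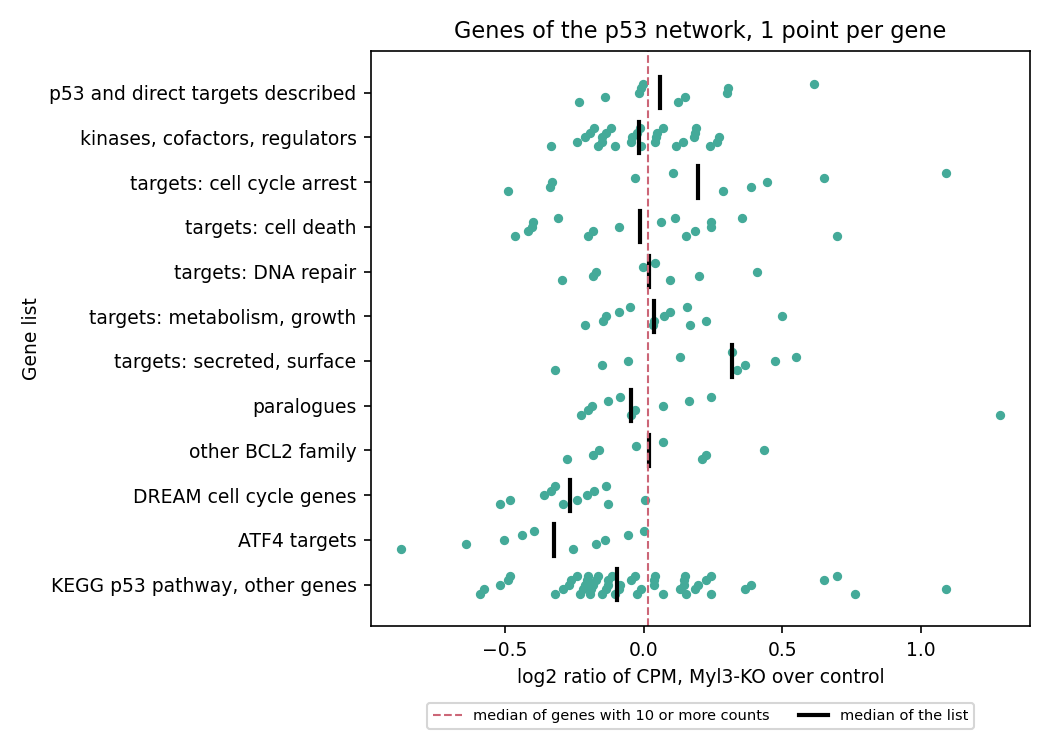
Log2 ratio of CPM (*Myl3*-KO over control) of the genes of each list, with 1 point per gene, black bars at the median of each list and a dashed line at the median of all genes with 10 or more counts (0.02). The cell cycle and ATF4 lists lie mostly left of the line, with medians of -0.27 and -0.32.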

How the data were processed

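Per the labels, RNA of primary chondrocytes was sequenced from control and *Myl3*-KO mice, with 1 library each. For each gene the authors deposited an expected count, which is not normalized, and an FPKM value, which scales reads by gene length and library. The submitters' processing notes name GRCm38 and mm10 as genome builds. The aligner, the counter and its strand setting are not given in the sources used here. The column headed NC was read as the control because the other is headed KO. The deposited table also holds annotation, of which the KEGG pathway column was used.

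Counts were scaled to library totals. Ratios used unrounded counts, and intervals used rounded ones. With 1 library per genotype, tests by edgeR or DESeq2 could not be fitted, and both tools gave scaling factors only. The members and lists were chosen with earlier results of these data known, and all lists are descriptions. Named genes were the 10 genes, *Cdkn1a*, *Trp63*, *Trp73*, the paralogues, cell type markers, and in each other list up to 5 genes per direction with at least 50 counts, a ratio of at least 0.5 in size and an interval without 0. Coordinates and transcripts came from GENCODE M21 on GRCm38, and promoters from RefSeq on GRCm38.p6. Intervals within a library pair are exact and conditional on the counts. Alternatives were TMM and DESeq2 scaling, other limits, other count filters, 1 added count, the FPKM ratio and centring by length. The calculation was tested on simulated data. Python 3.11.15, numpy 2.4.6, pandas 2.3.3, scipy 1.17.1, matplotlib 3.10.9, R 4.3.3, edgeR 4.0.16 and DESeq2 1.42.0 were used.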

Additional observations from a re-analysis of the deposited data

How the results depend on the processing

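No paired analysis was possible because each genotype has 1 library, and for the same reason no library could be left out. Under TMM and under DESeq2 size factors, the other p53 targets past the limit lower numbered 1 and those of the KEGG p53 pathway 5, where scaling by totals gave 0 and 3. With a limit of 1, the counts were 0 higher of the 10 genes, 1 higher of the other targets, 1 higher and 0 lower in the KEGG pathway, and 268 higher and 148 lower over all genes. With a limit of 0.25 they were 3 higher of the 10 genes, 14 higher and 10 lower of the other targets, 9 lower in the KEGG pathway, and 2509 higher and 1751 lower over all genes. Over all genes, 993 were higher and 466 lower at the limit of 0.5. At least 10 counts in each library left 257 lower, and at least 50 counts over both, chosen after seeing the data, left 557 higher and 215 lower. Centring by gene length, also chosen afterwards, gave *Mdm4* a ratio of 0.21. The ratios of the 10 genes moved by less than their counting interval in 49 of 50 alternatives, and 112 of 112 list medians stayed between the medians of their lower and upper interval bounds. Counts past the limit in the shorter lists were equal or stayed within 1.5 times in 173 of 200 cases. Most of these counts were 0 at the main setting, and 0 beside 0 was taken as equal, so this share says little on stability. The median of the 10 genes was 0.03 under TMM and 0.04 under DESeq2 scaling, and that of the other targets 0.04 under both. That of the KEGG pathway was -0.04 by the FPKM ratio. Under TMM and DESeq2 scaling the same 4 genes had intervals above 0 and *Bax* below, with that of *Sesn1* starting at 0.0072 under TMM. Only *Gadd45a* was called among the 10 genes, and its direction did not reverse. TMM and DESeq2 scaling shifted the ratios by only -0.027 and -0.024, so a reversal could hardly have appeared. All alternatives use the same 2 libraries, so they say little on stability between cultures. Of the 10 genes, depth limits *Bbc3* (88 counts) most.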
